A study of Mus musculus with 8 samples.

Results

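The immunoglobulin heavy chain variable segments of the mouse, the Ighv genes, were followed through mRNA and ribosome footprint libraries of resting lymphocytes. Members were all Ensembl gene IDs whose mouse symbol begins with Ighv, which gave 185 of the 53801 gene IDs in the count tables. They carry 183 symbols, since Ighv1-13 and Ighv5-8 are each held by 2 IDs. The number before the hyphen names the V family, and the members fall into 16 families. RefSeq's mouse annotation (GRCm38.p6, the assembly that the submitters' processing notes call mm10) holds all 185 by symbol, 120 as V segments and 65 as V segment pseudogenes. They lie on chromosome 12 between positions 113572929 and 116009954, with spans of 277 to 582 bases (median 294).

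A heavy chain gene is assembled in a developing B cell by joining 1 V segment to a diversity and a joining segment, and only the V segment joined in this way is strongly transcribed and spliced to a constant region such as Ighm or Ighd. The V segment encodes most of the variable domain that contacts antigen, so the mix of V segments in mRNA is a measure of the repertoire of the cell population. T cells assemble T cell receptor genes and do not normally make immunoglobulin heavy chains. Plasma cells, which secrete antibody, hold far more immunoglobulin mRNA per cell than resting B cells.

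The study set translation beside mRNA abundance in resting B cells and resting T cells from the spleen of B6 mice, isolated with magnetic sorting kits and kept for 2 h in RPMI medium. Ribosome footprints are the mRNA fragments that ribosomes protect from nuclease. For these libraries the cells received cycloheximide, an elongation inhibitor, at 100 µg/ml for 15 min before harvest, and monosomes were isolated from lysate treated with a mixture of ribonucleases. The RNA-seq libraries were made from total RNA, with no cycloheximide named. No genetic change separates the groups. Each of the 4 groups held 2 libraries, which are called here by their labelled numbers: B mRNA 1 and 3, T mRNA 1 and 4, B footprints 1 and 3, and T footprints 1 and 2. The labels do not say whether libraries came from separate or pooled mice, nor give age or sex, so the spread between libraries may be technical.

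RNA-seq libraries held 8945905 to 10050986 counts and footprint libraries 136433 to 627833, so a footprint value rests on far fewer reads. The labelled cell types were checked on 14 B cell genes other than immunoglobulins, such as Ms4a1, Ebf1 and Pax5, and on 14 T cell genes, such as Cd3e and Lck. All 14 B cell genes were higher in B cells in both assays (edgeR's quasi-likelihood test, adjusted p under 0.05). Of the 14 T cell genes, 3 were lower in B cell mRNA by this test and 14 in B cell footprints. Over all genes tested, 9.4% were called higher in B cell mRNA and 8.38% in B cell footprints. Lower in B cells were 1262 of 13929 genes in mRNA and 231 of 4771 in footprints. The summed level of the 14 T cell genes was 1.25% of the T cell level in B mRNA 1 and 10.96% in B mRNA 3. In bulk libraries, fewer cells of a type and less RNA per cell cannot be told apart.

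A count was found for 130 of the 185 members in at least 1 library. The other 55 had none in any of the 8 libraries, and 46 of these were pseudogenes and 9 V segments. Pseudogenes held 1.83% and 1.19% of Ighv counts in B footprints 1 and 3, and 2.97% and 2.42% in B mRNA 1 and 3. Ighv7-3, the highest of them, held 360 of the 475 pseudogene counts in B mRNA 1 and 114 of the 183 in B mRNA 3. V segments of a family are near-copies of each other, and the assignment of reads that match several of them was not given in the sources used here, so values of single segments are less certain than family sums.

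In B cells, Ighv transcripts took a larger part of the footprints than of the mRNA. Levels are given as CPM, the counts scaled to a library of 1000000, or as a percentage of the library's own total. Ighv counts made up 0.508% of B footprints 1 and 0.580% of B footprints 3, against 0.169% of B mRNA 1 and 0.0840% of B mRNA 3. The mean of 0.544% ± 0.0512 (SD, n = 2) in footprints was 4.31 times the mean of 0.126% ± 0.0600 (SD, n = 2) in mRNA. Both footprint libraries lay above both mRNA libraries, although the mRNA libraries themselves differed 2.01-fold. With 2 libraries against 2, an exact two-sided permutation test gave p = 0.333, the smallest it can give.

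**Figure D1:**
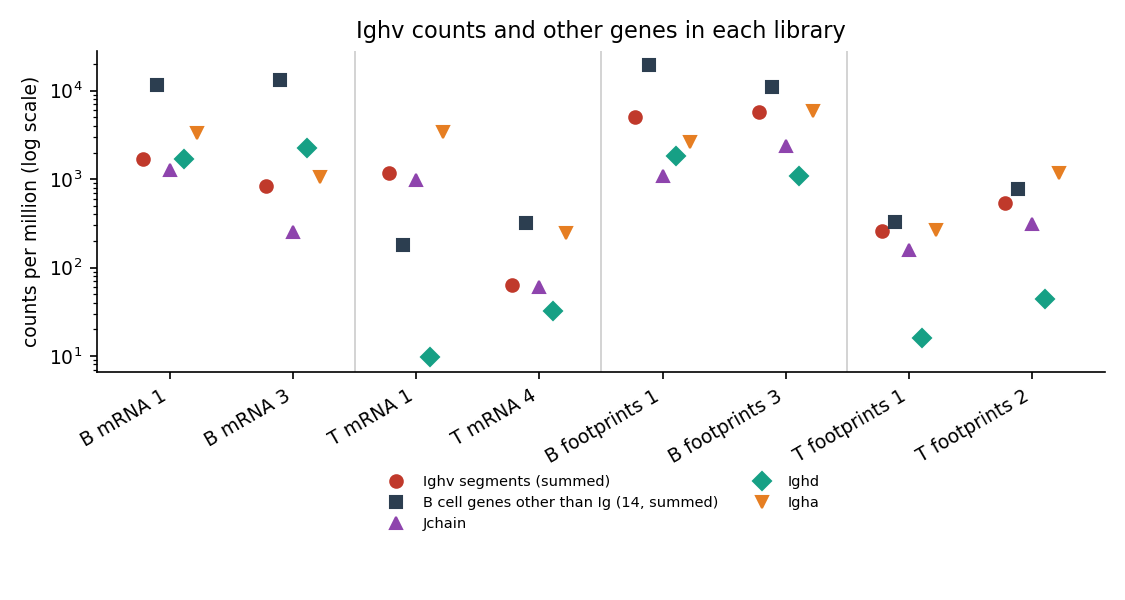
CPM on a log axis in each of the 8 libraries for the summed Ighv segments, 14 summed B cell genes other than immunoglobulins, Jchain, Ighd and Igha; each symbol is 1 library. T mRNA 1 stands with the B cell libraries for Ighv, Jchain and Igha but lies at 9.65 CPM for Ighd.

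The T cell libraries held very different amounts of Ighv mRNA. Ighv counts were 11746 in T mRNA 1, which is 0.117% of the library (95% Wilson interval 0.115% to 0.119%), and 574 in T mRNA 4, which is 0.00642% (0.00591% to 0.00696%). Such intervals cover counting error only. T mRNA 1 was 18.2 times as high as T mRNA 4 and 1.39 times as high as B mRNA 3. The 2 T cell libraries therefore lay on either side of B mRNA 3, and the groups overlapped. In footprints the T cell libraries held 164 Ighv counts, 0.0261% (0.0224% to 0.0304%), and 73 counts, 0.0535% (0.0426% to 0.0673%). The B footprint mean was 20.8 times the level of T footprints 1 and 10.2 times that of T footprints 2, and the groups did not overlap.

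Other genes did not all follow Ighv in T mRNA 1. The summed Ighv level there was 92.5% of the mean of the B cell libraries, and that of the light chain variable segments was 59.8%. Jchain, which links secreted IgA and IgM into polymers, stood at 128%, the summed IgG constant genes at 142% and Igha, the IgA constant gene, at 157% of the B cell mean. These means cover unlike B cell libraries: Jchain stood at 1268 and 251 CPM in B mRNA 1 and 3, and at 972 CPM in T mRNA 1. Ighg1, Ighg2b and Ighg3 in T mRNA 1 also lay between the B cell libraries. Ighg2c, at 993 CPM against 905 and 206 CPM, lay above both. Igha held 34255 counts against 31176 and 9411. Ighm stood at 22.0%. Ighd, whose product IgD marks mature naive B cells, stood at 0.489%, and the 14 B cell genes other than immunoglobulins had a median of 0.740% and a summed level of 1.47%. The list of 10 plasma cell genes (Jchain, Xbp1, Prdm1, Sdc1, Mzb1, Irf4, Tnfrsf17, Derl3, Fkbp11, Txndc5) summed to 1292 CPM in T mRNA 1 and 233 CPM in T mRNA 4, against 2651 and 1225 CPM in B mRNA 1 and 3. Jchain alone made up 972 of the 1292 CPM in T mRNA 1. Jchain, Prdm1 and Tnfrsf17 lay between the B cell libraries there. Xbp1, Sdc1, Mzb1, Irf4, Derl3, Fkbp11 and Txndc5 lay below both, as with Irf4 at 39.7 CPM against 556 and 310 CPM. The part of these genes in the Ighv level of T mRNA 1 was not tested. In T mRNA 4 the figures were 5.08% of the B cell mean for Ighv, 8.87% for Ighm, 1.64% for Ighd and 7.85% for Jchain. Tnfrsf17, the receptor BCMA, was at 0 in T mRNA 4 and in both T footprint libraries.

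In footprints both T cell libraries lay below both B cell libraries for Ighv, Ighm, Ighd and Jchain. T footprints 1 held 4.80% of the B cell mean for Ighv, 4.50% for Ighm, 1.10% for Ighd and 9.01% for Jchain. T footprints 2 held 9.83% for Ighv, 16.4% for Ighm, 3.02% for Ighd and 17.8% for Jchain. The 14 B cell genes summed to 2.12% and 5.098% of their B cell level in the 2 libraries, and the plasma cell genes to 489 and 770 CPM against 2424 and 4072 CPM in the B footprint libraries. Not every plasma cell gene lay lower: Xbp1, a transcription factor of secretory cells, stood at 167 and 191 CPM in T footprints 1 and 2 and at 76.0 and 116 CPM in B footprints 1 and 3, and Prdm1 overlapped. Their part in the T cell values was not tested.

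The Ighv counts of the T cell libraries were spread over many segments. Of the 185 members, 107 had at least 1 count in T mRNA 1 and 87 in T mRNA 4, against 120 and 118 in B mRNA 1 and 3. In footprints, 60 segments had a count in T footprints 1 and 41 in T footprints 2, against 91 in each B cell library. Evenness was measured as the effective number of segments, the inverse of the summed squared shares, which is the number of equally used segments that would give the same value. It was 48.4 and 49.7 in B mRNA 1 and 3 and 33.3 and 37.2 in B footprints 1 and 3. With every B cell library thinned to 1203 Ighv counts, the mRNA values were 46.6 and 48.8, still above those of the footprints. T mRNA 1 and 4 gave 41.5 and 45.5, and T footprints 1 and 2 gave 32.7 and 28.2, but thinned to the 73 counts of T footprints 2 the 4 T cell libraries lay between 26.96 and 29.5. The 10 highest segments held 34.4% and 34.1% of Ighv counts in B mRNA 1 and 3, and 39.4% and 36.2% in T mRNA 1 and 4. No library drew most of its Ighv counts from a handful of segments.

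Across the 85 segments with at least 20 counts over the 2 B mRNA libraries, the usage profile of T mRNA 1 was close to that of B mRNA 1. Usage here is a segment's share of the library's Ighv counts, on a log2 scale. Pearson's r across segments was 0.966 for T mRNA 1 with B mRNA 1, 0.921 for B mRNA 1 with B mRNA 3, and 0.889 for T mRNA 1 with B mRNA 3. T mRNA 4, with few counts, gave 0.785 with B mRNA 1. These values describe the libraries: segments are not independent, they share read assignment, and the libraries share the locus and the annotation. The median size of the log2 difference in share was 0.24 between T mRNA 1 and B mRNA 1, 0.26 between the 2 B mRNA libraries and 0.45 between T mRNA 1 and B mRNA 3.

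Ighv1-78 shows the likeness in a single segment. It was the highest segment in both B mRNA 1 and T mRNA 1, with 692 and 629 counts, which are 4.33% and 5.36% of Ighv counts. In B mRNA 3 it held 79 counts (1.05%) and in T mRNA 4 it held 5 (0.871%). In B footprints 1 and 3 it held 18 of 1203 and 20 of 1350 Ighv counts, a nearly equal part. So 1 B cell and 1 T cell mRNA library, both labelled with number 1, had a high share of this segment. The other mRNA libraries did not, and B footprints 1 did not stand out from B footprints 3.

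**Figure D2:**
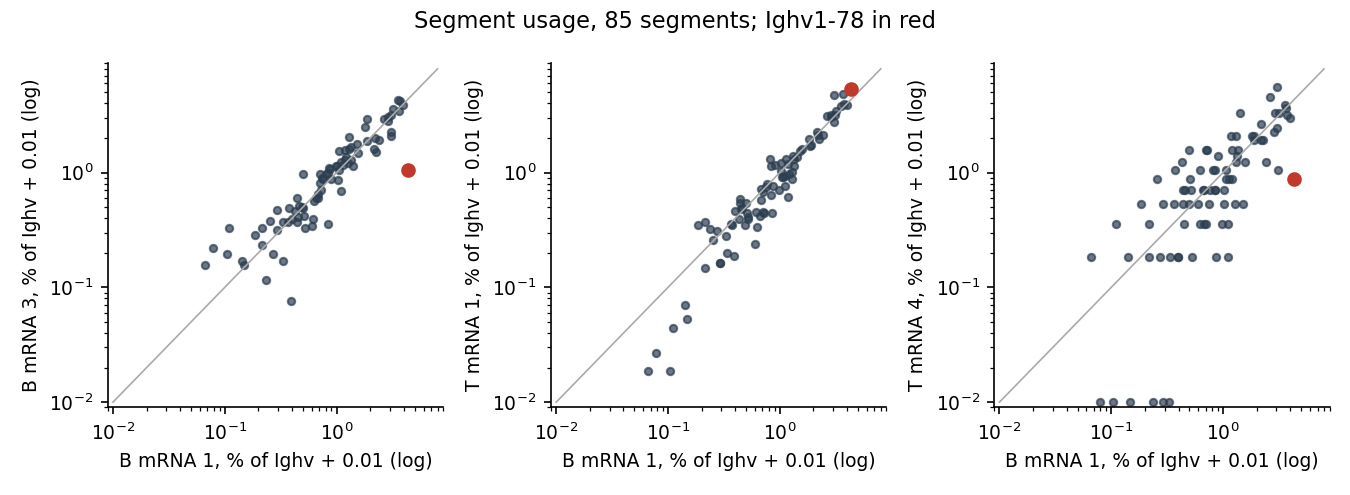
Share of Ighv counts per segment (percent plus 0.01, log axes) in B mRNA 1 on each x axis against B mRNA 3, T mRNA 1 and T mRNA 4 on the y axes; each point is 1 of 85 segments and the line marks equal shares. Ighv1-78, in red, lies near the line with T mRNA 1 and below it with B mRNA 3 and T mRNA 4.

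Segment by segment, B and T cell mRNA overlapped for most members. Among the 128 segments with a count in the 4 mRNA libraries, 51 were higher in both B cell libraries than in both T cell libraries and 0 were lower, where 21.1% of all genes with a count were higher in this way. T mRNA 1 exceeded B mRNA 3 in CPM for 69 of 128 segments and B mRNA 1 for 13. The filter on low counts left 85 segments. Of these, 2 were called higher in B cells and 0 lower by edgeR's quasi-likelihood test (Benjamini-Hochberg adjusted p under 0.05 over all genes tested), and 9.4% of all genes tested were called higher. The median log2 difference of the 85 was 1.11, against -0.01 over all genes tested.

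The 2 segments called were rare ones, and both passed the filter on low counts only through the B cell libraries, in which they were called higher. Ighv1-2, a pseudogene in RefSeq, had 15 and 14 counts in B mRNA 1 and 3, against 1 and 0 in T mRNA 1 and 4. Its log2 difference was 4.64 ± 0.87 (SE; edgeR adjusted p = 0.0287). Ighv5-2 had 16 and 24 counts against 4 and 2, a log2 difference of 2.78 ± 0.57 (SE; edgeR adjusted p = 0.0359). Neither passed when T mRNA 4 or either B cell library was left out. Without T mRNA 1, Ighv1-2 passed (edgeR adjusted p = 0.0494) and Ighv5-2 did not (edgeR adjusted p = 0.0795).

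The abundant segments did not pass in this comparison. Ighv9-3 stood at 59.7 and 36.0 CPM in B mRNA 1 and 3, and at 44.4 and 2.46 CPM in T mRNA 1 and 4. Its log2 difference was 1.05 ± 1.20 (SE; edgeR adjusted p = 0.616). Ighv1-80 stood at 66.6 and 32.4 CPM against 44.9 and 1.90 CPM, Ighv1-26 at 62.6 and 34.9 against 46.3 and 2.01 CPM, and Ighv1-82 at 53.3 and 30.03 against 39.8 and 2.12 CPM. Ighv1-55 stood at 61.4 and 28.7 CPM against 56.5 and 2.35 CPM. In each of these T mRNA 1 fell between the 2 B cell libraries and T mRNA 4 far below both.

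Leaving out T mRNA 1 changed this result. Without it, 58 of 87 segments tested were higher in B cells and 0 lower, against 7.57% of all genes tested, and their median log2 difference was 4.49. In T mRNA 4 only 19 segments reached 10 counts, so most of the 87 were tested because of their B cell counts. Ighv9-3 then differed by 4.40 ± 0.52 (SE; edgeR adjusted p = 0.0130) and Ighv1-26 by 4.72 ± 0.59 (SE; edgeR adjusted p = 0.0140). Ighv1-78, which differed between the B cell libraries, did not pass at 6.32 ± 1.89 (SE; edgeR adjusted p = 0.0958). This fit has a single T cell library, which is assumed to vary as the B cell libraries do. Without T mRNA 4, or without either B cell library, 0 segments were called.

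Family sums gave the same picture. Of the 14 families tested in mRNA, 0 were called higher or lower in B cells by edgeR (9.71% of all rows tested were called higher), 1 had an unadjusted p under 0.05, and DESeq2 called 0. Without T mRNA 1, 11 families were higher, against 7.35% of all rows tested. Ighv1, the largest family with 93 members, differed by 0.98 ± 1.31 on the log2 scale (SE; edgeR adjusted p = 0.670) with all 4 libraries.

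In footprints, most detected segments were higher in B cells. Of the 104 segments with a count in the 4 footprint libraries, 78 were higher in both B cell libraries than in both T cell libraries and 0 were lower, where 15.9% of all genes with a count were higher in this way. The other 26 overlapped. The filter left 33 segments, and all 33 were called higher in B cells (8.38% of all genes tested were called higher). No segment had 10 counts in both T cell libraries, so each of the 33 was tested because of its B cell counts, and 33 of 33 is a description of the segments abundant in B cells. Without the filter, 55 of 104 were called higher and 0 lower, against 4.07% of all genes with a count called higher.

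The size of the difference ranged from 2.85 to 6.27 on the log2 scale over the 30 tested segments with a T cell count. Ighv9-3 had 96 and 119 counts in B footprints 1 and 3 and 12 and 3 in T footprints 1 and 2, or 405 and 512 CPM against 19.1 and 22.0 CPM. Its log2 difference was 4.69 ± 0.49 (SE; edgeR adjusted p = 0.000314). Ighv3-6 had 115 and 85 counts against 13 and 7, and differed by 3.98 ± 0.53 (SE; edgeR adjusted p = 0.000507). Ighv5-4 had 24 and 30 counts against 1 and 0, and differed by 6.27 ± 0.79 (SE; edgeR adjusted p = 0.000425). In all of these the B cell libraries agreed within 1.5 times in counts and lay far above both T cell libraries.

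For 3 tested segments the T cell footprint libraries held no count, and only a lower bound can be given, taken against a floor of 3 counts over the T cell group. In B cells Ighv1-39 was at least 24.9-fold higher, Ighv1-50 at least 19.0-fold higher and Ighv1-54 at least 12.5-fold higher. The highest segments of T footprints 1 were Ighv3-6 with 13 counts, Ighv9-3 with 12 and Ighv1-36 with 8. In T footprints 2, Ighv3-6 had 7 counts, and Ighv1-18 and Ighv6-3 had 4 each. Ighv3-6 was thus the highest segment in both T footprint libraries and in B footprints 1, while Ighv9-3 was the highest in B footprints 3. Ighv1-36 was the exception, with 5 and 1 counts in B footprints 1 and 3.

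All 10 families tested in footprints were higher in B cells (edgeR, adjusted p at most 0.00826), where 7.73% of all rows tested were called higher. Ighv1 alone had 10 counts in both T cell libraries (87 and 30), so the other 9 were tested because of their B cell counts. Without the filter, 13 of 15 families were higher and 0 lower, against 3.78% of all rows. Their log2 differences ran from 3.33 ± 0.71 (SE) for Ighv7 to 4.78 ± 0.67 for Ighv10. Ighv1 differed by 4.02 ± 0.54 and Ighv9 by 4.55 ± 0.49.

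**Figure D3:**
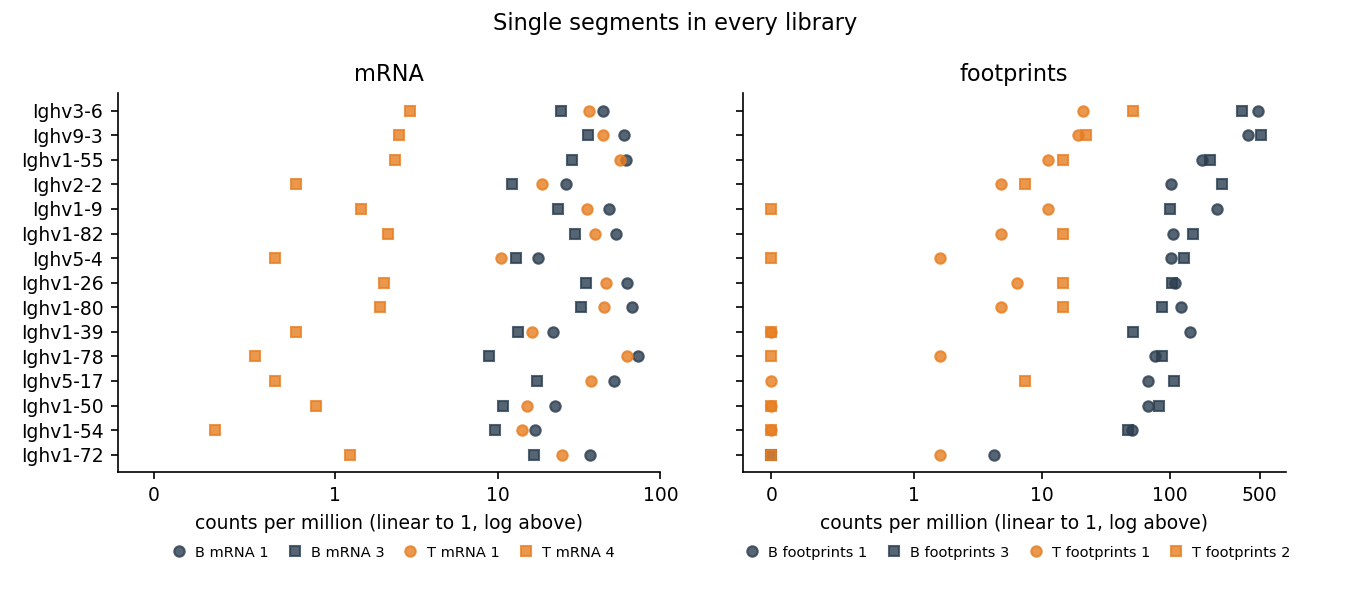
CPM (linear to 1, log above) of 15 segments in mRNA (left) and footprints (right); each symbol is 1 library, dark for B cells and orange for T cells. In mRNA, T mRNA 1 lies among the B cell libraries, except for Ighv5-4, where it lies below both, and T mRNA 4 lies below them. In footprints both T cell libraries lie below both B cell libraries, except for Ighv1-72.

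Family usage in B cells was dominated by Ighv1 in both assays. In mRNA, Ighv1 held 58.7% and 59.3% of Ighv counts in B mRNA 1 and 3, a mean of 59.0% ± 0.409 (SD, n = 2). Ighv5 followed with 8.05% ± 0.421, then Ighv9 with 4.98% ± 0.511, Ighv2 with 4.79% ± 0.303, Ighv8 with 4.65% ± 0.356 and Ighv3 with 4.24% ± 0.0531. Ighv6 came next with 4.07% ± 0.737. In this order the libraries of Ighv9 and Ighv2, of Ighv2 and Ighv8, and of Ighv3 and Ighv6 overlapped, so these neighbours did not differ beyond their spread. The single Ighv16 segment had no count in any library, and Ighv11, Ighv12, Ighv13 and Ighv15 each held under 0.5% of the mRNA counts.

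In footprints Ighv1 held less, 50.5% and 43.9%, a mean of 47.2% ± 4.62 (SD, n = 2). Of the 15 families with counts, 4 had a higher share in both footprint libraries than in both mRNA libraries (Ighv2, Ighv3, Ighv9, Ighv13), 4 had a lower one (Ighv1, Ighv4, Ighv7, Ighv8) and 7 overlapped. For 2 libraries against 2 an exact two-sided permutation test gives at least p = 0.333, so these family counts only describe the libraries. The gap of Ighv8 was narrow, with 4.37% in B footprints 3 against 4.40% in B mRNA 1. In B footprints 1 and 3 Ighv13 rested on 17 and 7 counts and Ighv4 on 13 and 6. Ighv9 stood at 4.62% and 5.34% in mRNA and at 9.06% and 10.4% in footprints. Ighv3 stood at 4.20% and 4.28% in mRNA and at 11.1% and 6.89% in footprints. Ighv2 stood at 5.00% and 4.57% in mRNA and at 5.40% and 10.3% in footprints, a gap smaller than the spread of the footprint libraries. Across the segments with a count, 71 of 127 had a higher CPM in both footprint libraries than in both mRNA libraries (13.1% of all genes with a count) and 17 a lower one (47.3%). Shares of a whole are linked, so a larger share of some families lowers that of the others.

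The T cell libraries had family shares of the same order. Ighv1 held 62.5% and 55.7% of Ighv counts in T mRNA 1 and 4 and 53.0% and 41.1% in T footprints 1 and 2. Ighv3 held 4.54% and 6.62% in T cell mRNA and 10.4% and 10.96% in T cell footprints, higher in both footprint libraries as in B cells. Ighv9 held 4.63% and 5.05% in mRNA and 9.15% and 5.48% in footprints. Shares in T footprints 2 rest on 73 counts in all: Ighv14 held 8 of them.

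**Figure D4:**
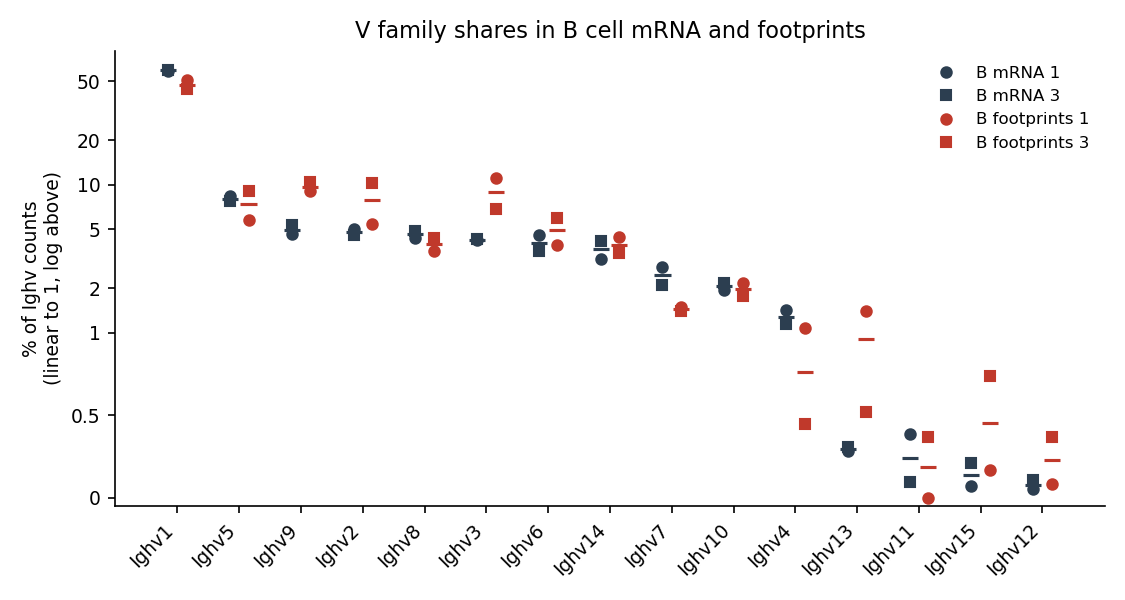
Share of Ighv counts held by each V family (percent; linear to 1, log above) in the 2 B cell mRNA and 2 B cell footprint libraries; symbols are libraries and bars are means. Ighv3 and Ighv9 lie higher in both footprint libraries and Ighv1 lies lower.

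Most of the difference in Ighv9 and Ighv3 lay in 1 segment each. Ighv9-3 held 3.91% ± 0.54 (SD, n = 2) of B cell mRNA Ighv counts and 8.40% ± 0.59 of footprint counts. Ighv3-6 held 2.78% ± 0.22 of mRNA counts and 7.93% ± 2.3 of footprint counts. Leaving out the highest segment of each footprint library, Ighv3-6 in B footprints 1 and Ighv9-3 in B footprints 3, gave Ighv1 a mean footprint share of 52.0%. Neither is an Ighv1 segment, so this step could only raise the share. On a scale of CPM per kilobase of RefSeq span, the highest mean levels in B cell mRNA were 168 for Ighv1-80, 166 for Ighv1-26 and 142 for Ighv1-82. In footprints they were 1438 for Ighv3-6, 1064 for Ighv9-3 and 563 for Ighv1-9. The counts are keyed by Ensembl ID, so this order also depends on the annotated RefSeq spans, which run from 277 to 582 bases. By mean share of footprint counts, without this scale, Ighv9-3 at 8.40% lay above Ighv3-6 at 7.93%.

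Usage also differed along the locus. When the locus was split into 3 equal lengths, the length nearest the joining and constant genes (68 segments) held 30.1% ± 0.273 of Ighv counts in B cell mRNA and 41.5% ± 2.44 in footprints (SD, n = 2). The middle length (72 segments) held 34.6% ± 1.42 and 32.3% ± 3.29. The far length (45 segments, all Ighv1 or Ighv8) held 35.4% ± 1.15 and 26.3% ± 0.851. In the near and far lengths the footprint and mRNA libraries did not overlap, and in the middle they did. Ighv9-3 and Ighv3-6 both lie in the near length. The same shares in T mRNA 1, from near to far, were 27.9%, 32.8% and 39.3%.

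**Figure D5:**
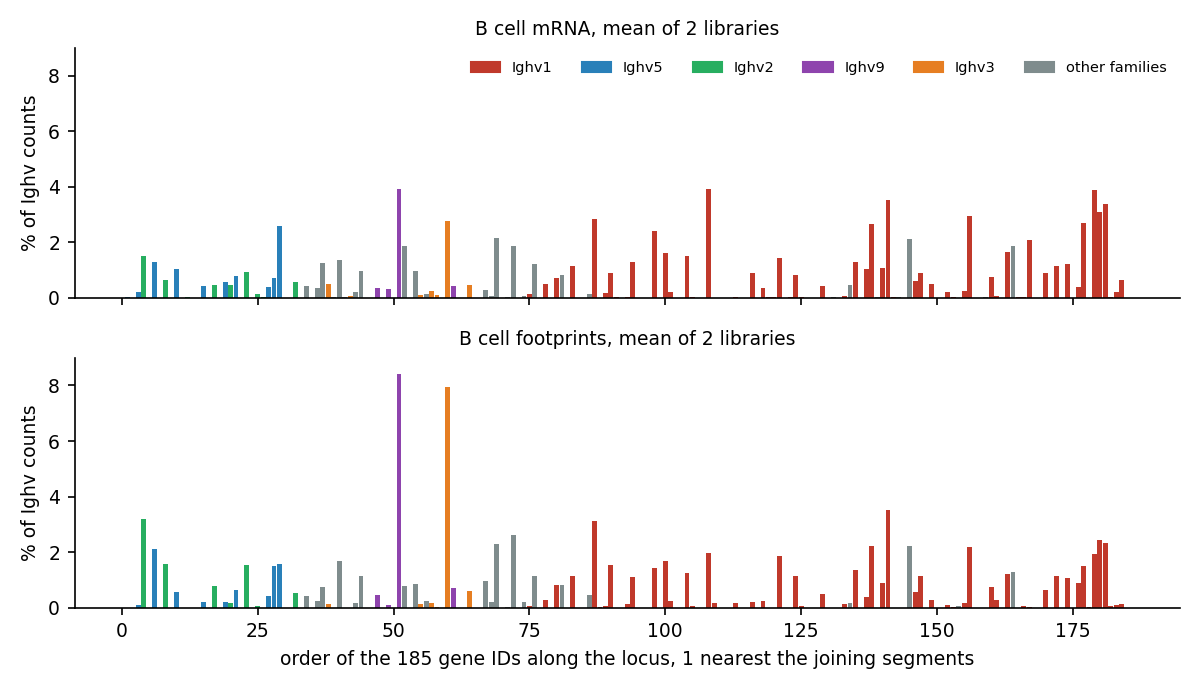
Mean share of Ighv counts (percent, 2 libraries each) of the 185 gene IDs in their order along the locus, from the joining segments outwards, in B cell mRNA (top) and footprints (bottom), coloured by family. Ighv9-3 and Ighv3-6 form the 2 tallest bars in footprints.

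The ratio of footprints to mRNA in B cells, a measure of translational efficiency, was tested in a model of all 8 libraries. Of 88 segments tested, 5 were called higher in footprints and 0 lower, against 6.52% of all genes tested called higher, so the share called was near the background. The median log2 difference of the 88 was 1.92, against -0.44 over all genes tested, and 85 lay above 0. Ighv3-6 differed by 3.57 ± 0.95 (SE; edgeR adjusted p = 0.0329). The other 4 called, Ighv1-67, Ighv5-16, Ighv12-3 and Ighv15-2, rested on fewer footprint counts, with 2 and 5, 6 and 34, 1 and 5, and 2 and 10 counts in B footprints 1 and 3. Ighv12-3 stood at 0.845 and 0.890 CPM in B mRNA 1 and 3, and Ighv15-2 at 1.16 and 1.78 CPM. Ighv1-67 held fewer than 20 counts over the 2 B mRNA libraries. At least Ighv1-67, Ighv12-3 and Ighv15-2 passed the filter on low counts only through their footprint levels, the group in which they were called higher. Ighv9-3 differed by 3.22 on the log2 scale (edgeR adjusted p = 0.0554).

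This model shares its estimate of the spread with the T cell libraries, and T mRNA 1 and 4 differed 18.2-fold in Ighv. Fitted on the 4 B cell libraries alone, 43 of 87 segments were higher in footprints and 0 lower (7.25% of all genes tested were called higher), with a median log2 difference of 1.95. At least Ighv1-67, Ighv12-3 and Ighv15-2 of these 43 again passed the filter on low counts only through their footprint levels. In B footprints 1 a single count stood at 4.22 CPM, so segments with very few footprints could be tested. Compared with the larger model, the differences themselves hardly moved, and their errors shrank. Ighv3-6 differed by 3.60 ± 0.40 (SE; edgeR adjusted p = 0.00286), Ighv9-3 by 3.25 ± 0.38 (SE; edgeR adjusted p = 0.00378) and Ighv5-4 by 2.90 ± 0.35 (SE; edgeR adjusted p = 0.00403). Ighv1-55 differed by 2.07 ± 0.45 (SE; edgeR adjusted p = 0.0239). Ighv1-26, among the highest segments in mRNA, did not pass at 1.10 ± 0.40 (SE; edgeR adjusted p = 0.0962), nor did Ighv1-80 at 1.04 ± 0.46 (SE; edgeR adjusted p = 0.146).

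By family, 2 of 15 passed in the model of all 8 libraries (6.67% of all rows tested were called higher) and 12 of 15 in the B cell libraries alone (7.19%). In the larger model Ighv15 differed by 4.11 ± 0.97 (SE; edgeR adjusted p = 0.0245) and Ighv12 by 3.84 ± 0.99 (SE; edgeR adjusted p = 0.0331), both resting on few counts. In B mRNA 1 and 3 Ighv15 stood at 1.16 and 1.78 CPM and Ighv12 at 0.845 and 0.890 CPM. Both families were also among the 12 called in the B cell libraries alone. In both fits they passed the filter only through their footprint levels, the group in which they were called higher. Ighv3 differed by 3.11 ± 0.95 (SE; edgeR adjusted p = 0.0514), Ighv9 by 3.08 ± 0.98 (SE; edgeR adjusted p = 0.0596) and Ighv1 by 1.73 ± 1.03 (SE; edgeR adjusted p = 0.259).

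Genes that share the heavy chain mRNA with the V segments did not all differ alike between the assays. Ighm differed by 0.30 ± 0.63 on the log2 scale and Ighd by -0.48 ± 0.53 (SE; edgeR adjusted p = 0.762 and 0.541). The joining segment Ighj4 held 104 and 58 counts in B footprints 1 and 3 against 36 and 17 in B mRNA 1 and 3, in spite of the smaller footprint libraries. All 4 joining segments passed (Ighj4 6.84 ± 0.53; edgeR adjusted p = 0.000217), where 6.52% of all genes tested were called higher. In B mRNA 1 and 3 Ighj4 was the highest of the 4, at 3.80 and 1.89 CPM. All 4 were thus tested because of their footprint levels, the group in which they were called higher. Cd79a and Cd79b, which pair with the membrane heavy chain for signalling, differed by 0.21 ± 0.50 and 0.31 ± 0.63 (SE; edgeR adjusted p = 0.791 and 0.758). Per 100 Ighm counts there were 34.3 and 48.1 Ighv counts in B footprints 1 and 3, and 14.2 and 9.13 in B mRNA 1 and 3. How reads across a V to D to J junction were aligned, and the shorter single-end reads of the footprints against paired-end mRNA reads, bear on these ratios and were not tested.

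Most genes of the B cell receptor pathway were higher in B cells. Of 13 genes listed for the pathway (Cd79a, Cd79b, Lyn, Syk, Btk, Blnk, Plcg2, Cd81, Cr2, Cd22, Pik3cd, Vav1, Ptpn6), 11 were higher and 1 (Pik3cd, at -0.93 on the log2 scale) lower in B cell mRNA, where 9.4% of all genes tested were called higher, and 11 were higher in B cell footprints (8.38%). Vav1, at 0.18 and 0.92, passed in neither. Syk, the kinase that binds the phosphorylated receptor, was higher by 5.47 on the log2 scale in mRNA and 4.38 in footprints. Blnk, the adaptor that Syk phosphorylates, was higher by 5.91 and 5.19. Between footprints and mRNA in B cells only Cd81 of the 13 passed, at 1.21. Of 12 heavy chain constant and joining genes, 10 were tested in mRNA and 2 were higher in B cells, Ighm at 2.73 ± 0.55 (SE; edgeR adjusted p = 0.0344) and Ighd at 6.63 ± 0.69 (SE; edgeR adjusted p = 0.0082), and all 11 tested in footprints were higher (8.38% of all genes). Of these 11, 6 (Ighd, Ighg3 and the 4 joining segments) did not have 10 counts in both T cell libraries and were tested because of their B cell counts.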

How the data were processed

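Gene counts per library, whole numbers keyed by Ensembl ID, were used as deposited by the authors. FastQC, Bowtie2, TopHat, HTSeq and mm10 are named in the submitters' processing notes. Their versions, the strand setting and the handling of reads with several matches were not given in the sources used here. All 8 count columns belong to a labelled sample. Symbols, positions and pseudogene classes came from RefSeq (GRCm38.p6), matched by symbol.

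Levels are CPM of the library total. Tests used edgeR 4.0.16 in R 4.3.3 (TMM, filterByExpr with a minimum count of 10 and total of 15, quasi-likelihood F test, Benjamini-Hochberg over all genes, threshold 0.05), fitted on whole tables. SE is the log2 difference divided by the root of F. DESeq2 1.42.0, RLE scaling, no filter, left-out libraries and thinning were alternatives, and scripts were tested on simulated counts. Segments named were the 10 highest in B cell mRNA, the 5 highest in B cell footprints, the 3 highest in each T cell library, up to 5 with the largest called difference per comparison, the highest of each family and the highest pseudogene. In B versus T mRNA, up to 5 abundant segments that did not pass were added. Members and lists were chosen with earlier results of these data known. The comparisons share their B cell libraries. A gene of the lists is not reported here and was left out of them. No sequences are printed.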

Additional observations from a re-analysis of the deposited data

How the results depend on the processing

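Segment calls in mRNA depended on single libraries: 0 to 58 were called when each library was left out in turn, and 1 without the filter. In footprints between the cell types 26 to 39 were called with libraries left out, and 55 without the filter. For footprints against mRNA in B cells, the segment count was 5 with all libraries, 0 to 44 with libraries left out (41 without T mRNA 1, 44 without T mRNA 4), 13 by DESeq2, 23 without the filter, 16 with RNA-seq thinned to 232568 counts, and 43 in the B cell libraries alone. In that comparison 2 of 15 families were called (877 of all 13154 rows higher), and 6 by DESeq2 (1426 of 13154). RLE scaling, immunoglobulin genes left out of the scaling, and plain totals each gave 4 of 15 (1033, 901 and 886 of 13154). Without the filter 8 of 15 were called (978 of 24646), with thinning 7 of 10 (672 of 6361). The B cell libraries alone gave 12 of 15 (852 of 11858). With libraries left out, the median log2 difference of the families ran from 1.77 to 3.26. Families between the cell types numbered 0 to 11 in mRNA and 8 to 11 in footprints over libraries left out.

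The B cell libraries share the numbers 1 and 3 in both assays, and the labels do not say that a number marks the same mouse. With the number as a replicate block in the B cell libraries, 48 segments (47 higher, 1 lower) and 12 families were called. Deviations of same-numbered libraries correlated at -0.17 over 3419 genes, so the numbers were not treated as pairs. The B and T cell groups share only the number 1, and no paired analysis was possible there.

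Single segments changed direction when a library was left out, and their log2 differences are given from the lowest to the highest value over libraries left out. Between the cell types in mRNA, the lowest came without B mRNA 1 or T mRNA 4 and the highest without T mRNA 1: Ighv1-54 ran from -0.0706 to 5.38, Ighv1-55 from -0.31 to 4.39, Ighv1-78 from -1.89 to 6.32, Ighv1-81 from -0.50 to 3.57, Ighv3-6 from -0.0727 to 3.69, Ighv5-17 from -0.18 to 5.81, Ighv11-2 from -1.02 to 4.96 and the Ighv11 family from -0.54 to 5.02. For footprints against mRNA, the lowest came without a B footprint library: Ighv1-36 ran from -0.0806 to 2.08, Ighv5-2 from -6.64 to 2.56, Ighv11-2 from -7.36 to 4.27 and the Ighv11 family from -7.42 to 3.82. None of these passed in the same comparison with all libraries. The cause was not tested.

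The Ighv1 share of B cell mRNA was 60.5% per kilobase and 60.4% without pseudogenes, and that of footprints 52.0% without the highest segment, with 58.7% to 59.3% and 43.9% to 50.5% in single libraries. The highest footprint segments were not Ighv1 segments, so leaving them out could only raise the Ighv1 share. Detection in T cells depended on the count required. With at least 3 counts, 23 segments were left in T footprints 1 and 8 in T footprints 2; with at least 10, 2 and 0, and 19 in T mRNA 4. Thinning to the smallest library of the assay left 25.2 segments in T footprints 1, against 41 in T footprints 2, and 105.6 in T mRNA 1, against 87 in T mRNA 4. Thinned to the fewest Ighv counts of the cell type, the effective number was 26.96 in T footprints 1, 46.6 in B mRNA 1, 48.8 in B mRNA 3, 27.9 in T mRNA 1 and 29.5 in T mRNA 4.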

Other observations

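Ighv1-72, chosen after its values were seen, was abundant in B cell mRNA and almost missing from the footprints. It had 348 and 151 counts in B mRNA 1 and 3 and 1 and 0 counts in B footprints 1 and 3. It held 2.18% and 2.00% of Ighv counts in mRNA, a share like that of Ighv8-8 (2.13% ± 0.47, SD, n = 2), which had 24 and 33 footprint counts. Its log2 difference between footprints and mRNA was -3.67 ± 1.26 (SE; edgeR adjusted p = 0.0831) in the B cell libraries alone, and it did not pass. T mRNA 1 and 4 held 250 and 11 counts of it. Ighv1-72 was not alone. Of 66 segments with a mean of at least 5 CPM in B cell mRNA, 8 held at most 6 counts over B footprints 1 and 3. Among these 8, Ighv1-85 had 107 and 48 mRNA counts and 3 and 0 footprint counts. Ighv3-1 had 97 and 29 mRNA counts and 2 and 1 footprint counts. At this depth a segment with few footprints cannot be told from one with none, and whether short reads of Ighv1-72 were assigned to a near-copy was not tested.

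Light chain variable segments followed a different ratio to Ighv in the 2 assays. There were 3.01 and 2.93 light chain variable counts for each Ighv count in B mRNA 1 and 3, and 1.4996 and 1.75 in B footprints 1 and 3. The T cell libraries gave 1.93 and 2.24 in mRNA and 1.80 and 2.53 in footprints.

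Of 7 genes listed for B cell precursors, in which V segments are joined, Rag1, Rag2, Vpreb1, Vpreb2 and Igll1 had at most 8 counts in any library. Vpreb3 held 881 and 883 counts in B mRNA 1 and 3 against 20 and 11 in T mRNA 1 and 4, and was higher in B cells by 5.92 on the log2 scale. Dntt held 7 and 30 counts in B mRNA 1 and 3 and 100 and 88 in T mRNA 1 and 4, and did not pass.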
